A study of Mus musculus with 9 samples.

Results

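The 10 genes described here, Pecam1, Cdh5, Kdr, Flt1, Tek, Tie1, Eng, Vwf, Emcn and Plvap, are genes of vascular endothelial cells, and they were read from bulk RNA sequencing of 9 mouse liver tumors. They were chosen by name as endothelial genes, with earlier results of these data known, among 52176 gene symbols in the deposited tables. The tumors grew from pieces of Hepa1-6 tumor, a mouse hepatoma line, placed in the left liver lobe of male C57BL/6 mice that were 6 to 8 weeks old when bought. The mice received either PBS or the RMP1-14 clone of antibody against PD-1 (at 5 mg per kg) into the peritoneum, in 5 injections 4 days apart, from day 10 to day 26, and tumors were taken on day 27 after the tissue around them had been cut away. There were 3 tumors of each group, which were treated with PBS, did not respond to anti-PD-1 antibody (nonresponsive) or responded to it (responsive), each tumor from another mouse. The nonresponsive tumors were the largest and the responsive tumors the smallest of the antibody-treated ones, and those in between were left out. Response here is thus a choice by tumor size at the end of treatment. All groups share the host strain, the tumor line and the injection schedule. The implanted pieces were cut from Hepa1-6 tumors grown under the skin, so vessels can come from the piece as well as from the host. The dissected tissue can also hold vessels of the adjoining liver.

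Endothelial cells line blood vessels and are held together by junction proteins, among them those of Pecam1 and Cdh5. Their growth is driven by VEGF, which acts through the receptor of Kdr, whereas the receptor of Flt1 binds the same ligand tightly, signals weakly and also exists in a soluble form. The receptors of Tek and Tie1 answer to angiopoietins and govern vessel stability, and Eng encodes a co-receptor for BMP and TGF-beta ligands. Vwf encodes a clotting protein stored in endothelial cells and platelets, Emcn a sialomucin of veins and capillaries, and Plvap the protein that forms the diaphragms of fenestrated capillaries, which is abundant in tumor vessels.

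RefSeq promoter windows of GRCm38.p6 were at hand for 6 of the 10 genes, and 3 of these have no exon of the GENCODE annotation in the 250 bases before the start. They are shown because Eng and Tek moved with most of the other genes across the tumors and Flt1 did not. Capitals mark the letters GGAA, or TTCC for the same letters on the other strand, which are the core that ETS factors such as those of Erg and Fli1 bind and which cannot overlap one another.
Eng, chr2:32646345-32646594, plus strand: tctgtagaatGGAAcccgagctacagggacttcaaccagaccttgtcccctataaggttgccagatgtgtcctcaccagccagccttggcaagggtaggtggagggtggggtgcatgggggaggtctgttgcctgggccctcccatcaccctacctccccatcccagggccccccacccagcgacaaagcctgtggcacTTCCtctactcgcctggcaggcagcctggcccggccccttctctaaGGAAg
Tek, chr4:94739039-94739288, plus strand: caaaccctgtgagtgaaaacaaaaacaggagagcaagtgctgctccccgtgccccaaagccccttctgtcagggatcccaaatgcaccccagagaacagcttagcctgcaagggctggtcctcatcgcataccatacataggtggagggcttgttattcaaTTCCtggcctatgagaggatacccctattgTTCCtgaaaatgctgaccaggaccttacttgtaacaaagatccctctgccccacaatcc
Flt1, chr5:147726012-147726261, minus strand: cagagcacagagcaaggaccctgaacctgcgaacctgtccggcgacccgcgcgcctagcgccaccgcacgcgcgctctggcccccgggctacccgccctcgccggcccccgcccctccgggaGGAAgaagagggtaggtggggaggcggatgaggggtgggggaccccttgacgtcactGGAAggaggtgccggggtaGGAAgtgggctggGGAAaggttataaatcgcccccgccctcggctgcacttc
The letters occur 3 times in the window of Eng, 2 times in that of Tek and 4 times in that of Flt1. Among 32851 such windows a share of 93.4% holds them at least once, with a median of 3 per window, so that the 3 windows are near the usual number.

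The values are FPKM, fragments counted on a gene and scaled by transcript length and by the mapped fragments of the library, which Cufflinks estimated in each tumor. The scaling by length lets the levels of different genes be set side by side. All 10 genes had 1 entry in every tumor and no failed estimate. Tie1 shared its entry with Gm12859 in 2 tumors, PBS tumor 3 and nonresponsive tumor 1. The number of sequenced fragments is not given in the tables. The 95% interval that Cufflinks attaches to each value stands for the precision of that estimate within a tumor, which need not be counting precision alone. To either side of the value it reached 4.15% to 7.13% for Pecam1, 7.34% to 13.3% for Flt1, 11.3% to 40.2% for Tek and 16.7% to 53.3% for Vwf, so that the last 2 genes are the least precisely measured.

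**Figure D1:**
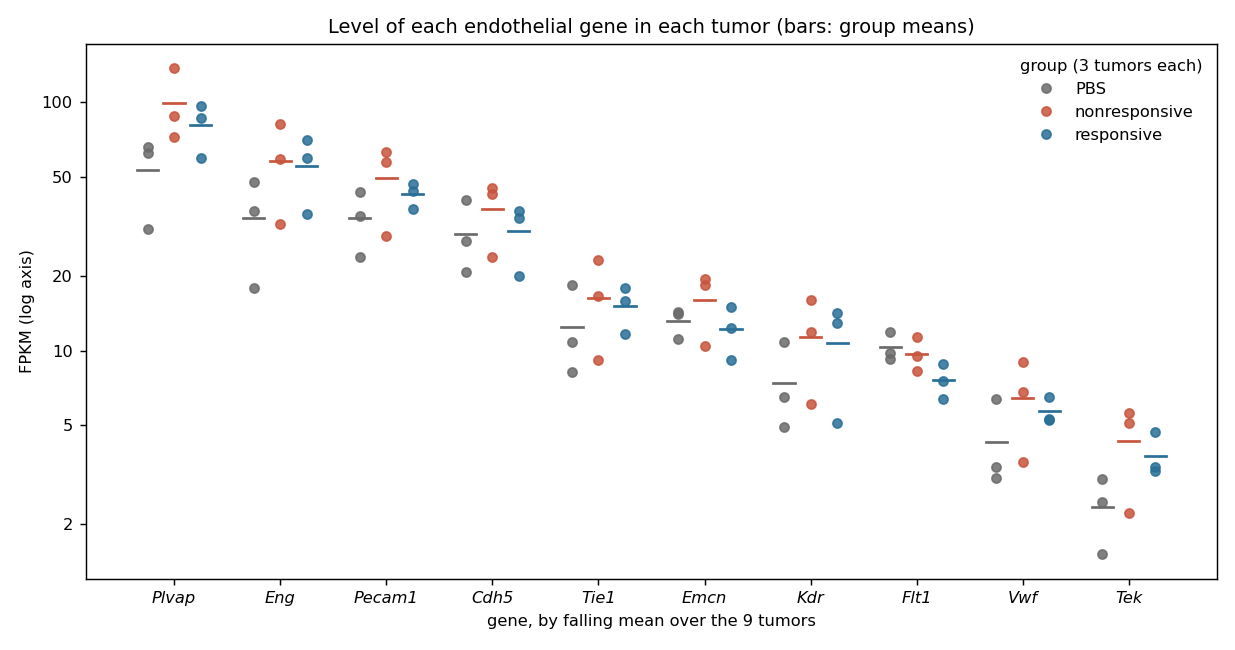
FPKM of each endothelial gene (y axis, log scale) in each of the 9 tumors, with genes on the x axis in order of their mean, points for single tumors and short bars for group means. Plvap leads and Tek is last. The groups overlap except for Tek and Flt1 between responsive and PBS tumors and for Plvap between nonresponsive and PBS tumors.

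All 10 genes were found in every tumor, from Tek at 1.51 in PBS tumor 1 to Plvap at 136 in nonresponsive tumor 1. Their presence in bulk tissue does not show which cells the RNA came from. By their mean over the 9 tumors the order was Plvap, Eng, Pecam1, Cdh5, Tie1, Emcn, Kdr, Flt1, Vwf and Tek. Plvap stood above Eng in 9 of 9 tumors, by 1.37 to 2.25 times, and Cdh5 stood above Tie1 in 9 of 9, by 1.71 to 2.58 times. Pecam1 exceeded Cdh5, Flt1 exceeded Vwf and Vwf exceeded Tek in all 9 tumors as well. Their Cufflinks intervals still overlapped in some tumors. In PBS tumor 3 they were 1.49 to 4.66 for Vwf and 2.03 to 2.89 for Tek. Those of Flt1 and Vwf overlapped in responsive tumor 2, and those of Pecam1 and Cdh5 in PBS tumor 2. The other neighbours in this order changed places between tumors. Eng exceeded Pecam1 in 6 of 9 tumors, Tie1 exceeded Emcn in 5 of 9, Emcn exceeded Kdr in 8 of 9 and Kdr exceeded Flt1 in 4 of 9.

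Pecam1, whose product sits at the contacts between endothelial cells, measured 23.8, 43.5 and 34.6 in PBS tumors 1 to 3, 57.1, 62.7 and 28.8 in the nonresponsive tumors and 46.6, 37.0 and 43.9 in the responsive tumors. The responsive tumors lay within the range of the nonresponsive ones, of which nonresponsive tumor 3 lay among the PBS tumors. Cdh5, the cadherin of endothelial junctions, measured 20.6, 40.3 and 27.6 in PBS, 45.2, 42.5 and 23.7 in nonresponsive tumors and 34.1, 19.9 and 36.4 in responsive ones. The lowest of all 9 tumors was responsive tumor 2, and it and nonresponsive tumor 3 stood well below the other two tumors of their groups. Group means of Cdh5 were 29.5 ± 9.99 (SD, n = 3), 37.1 ± 11.7 and 30.1 ± 8.93.

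Kdr, the main signaling receptor for VEGF, measured 4.92, 10.9 and 6.50 in PBS, 16.0, 11.8 and 6.12 in nonresponsive tumors and 14.2, 5.12 and 12.9 in responsive ones. Both antibody-treated groups thus held tumors above the highest and tumors inside the range of the PBS tumors, and the span within a group was 2.21 to 2.77 times. Flt1, the decoy-like receptor for the same ligand, measured 9.73, 11.9 and 9.28 in PBS, 9.51, 11.3 and 8.28 in nonresponsive tumors and 7.53, 6.36 and 8.87 in responsive ones. The spread of Flt1 was the smallest of the 10 genes, 1.86 times between its highest and its lowest tumor, and all 3 responsive tumors were below all 3 PBS tumors. Its means were 10.3 ± 1.38 in PBS, 9.70 ± 1.53 in nonresponsive tumors and 7.59 ± 1.25 in responsive ones (SD, n = 3). The ratio of Kdr to Flt1 was 0.506, 0.915 and 0.700 in PBS, 1.68, 1.04 and 0.739 in nonresponsive tumors and 1.89, 0.805 and 1.45 in responsive ones. Its groups overlapped (two-sided exact permutation test, unadjusted p = 0.2 for either antibody-treated group against PBS and 0.7 between these groups, where 0.1 is the smallest p that 3 tumors against 3 allow).

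Tek, the angiopoietin receptor, measured 1.51, 3.05 and 2.46 in PBS, 5.10, 5.61 and 2.22 in nonresponsive tumors and 4.68, 3.39 and 3.28 in responsive ones. All responsive tumors were above all PBS tumors, whereas nonresponsive tumor 3 was among the PBS tumors. Means of Tek were 2.34 ± 0.775, 4.31 ± 1.83 and 3.78 ± 0.781 (SD, n = 3) in this order of groups. Tie1, its partner receptor, measured 8.22, 18.4 and 10.8 in PBS, 23.2, 16.6 and 9.19 in nonresponsive tumors and 17.8, 11.6 and 15.8 in responsive ones. Its groups overlapped throughout. Eng measured 17.8, 47.6 and 36.6 in PBS, 81.7, 59.0 and 32.2 in nonresponsive tumors and 70.3, 35.4 and 59.4 in responsive ones. It had the widest span of the 10 genes, 4.59 times between nonresponsive tumor 1 and PBS tumor 1.

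Vwf measured 3.40, 6.39 and 3.08 in PBS, 6.83, 9.01 and 3.57 in nonresponsive tumors and 6.53, 5.31 and 5.24 in responsive ones. PBS tumor 2 lay among the antibody-treated ones. Emcn measured 14.3, 14.1 and 11.1 in PBS, 18.3, 19.4 and 10.4 in nonresponsive tumors and 15.0, 9.20 and 12.4 in responsive ones. Unlike for most of the other genes, PBS tumor 1 was not low for Emcn. Plvap measured 30.9, 66.0 and 62.4 in PBS, 136, 87.7 and 72.4 in nonresponsive tumors and 96.5, 59.3 and 86.5 in responsive ones. All nonresponsive tumors were above all PBS tumors, and the means were 53.1 ± 19.3, 98.9 ± 33.4 and 80.8 ± 19.3 (SD, n = 3).

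**Figure D2:**
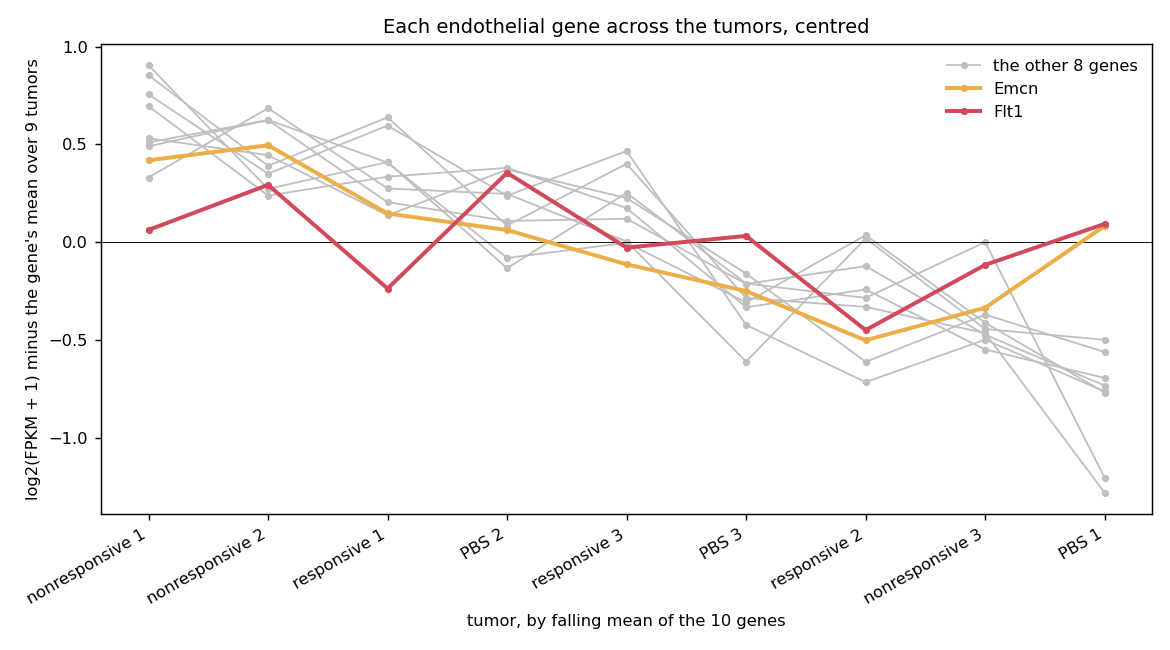
log2(FPKM + 1) of each gene minus its own mean over the 9 tumors (y axis), with tumors on the x axis ordered by the mean of the 10 genes and 1 line per gene. Flt1 and Emcn are colored, and Flt1 stays near its mean in nonresponsive tumor 1 and in PBS tumor 1, where the other 8 genes are high and low.

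The spread between tumors of a group was shared by most of the genes. The mean log2(FPKM + 1) of the 10 genes was 3.49, 4.29 and 3.85 in PBS tumors 1 to 3, 4.68, 4.57 and 3.76 in the nonresponsive tumors and 4.41, 3.80 and 4.27 in the responsive tumors. Each group therefore held a tumor near the bottom of the order, which were PBS tumor 1, nonresponsive tumor 3 and responsive tumor 2. In the same order of groups the means were 3.87 ± 0.40, 4.33 ± 0.50 and 4.16 ± 0.32 (SD, n = 3), with differences about as large as the SD within a group or smaller. PBS tumor 1 was among the lowest 3 of the 9 tumors for 8 of the 10 genes, and nonresponsive tumor 3 for 9. Nonresponsive tumor 1 was among the highest 3 for 9 genes and responsive tumor 1 for 8. The exceptions in responsive tumor 1 were Cdh5 and Flt1, of which Flt1 ranked the 8th of 9 there. In these bulk samples fewer endothelial cells and less of their RNA per cell cannot be told apart.

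Pearson's r with the mean of the 10 genes, which each gene itself enters, was 0.87 to 0.96 for 8 genes, 0.72 for Emcn and 0.33 for Flt1, over 9 tumors. Between pairs of genes r was at most 0.64 for any pair with Flt1, whereas the median over pairs was 0.87 for Pecam1 and 0.90 for Eng. These values describe 9 tumors that share the scaling of each library. Relative to Pecam1, Flt1 was 0.408, 0.272 and 0.268 in PBS, 0.167, 0.181 and 0.288 in nonresponsive tumors and 0.162, 0.172 and 0.202 in responsive ones. The responsive tumors were below the PBS tumors (two-sided exact permutation test, p = 0.1, the smallest possible). Emcn relative to Pecam1 was 0.600, 0.323 and 0.322 in PBS, 0.321, 0.309 and 0.363 in nonresponsive tumors and 0.322, 0.249 and 0.281 in responsive ones. The exact p was again 0.1 for responsive against PBS tumors, although responsive tumor 1 and PBS tumor 3 were almost equal. These 2 were picked out of 8 ratios, each compared in all 3 comparisons, and none can pass 0.05 even before adjustment.

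The 5 other genes whose levels followed the mean of the 10 genes most closely, among 10787 genes with FPKM of at least 1 in all 9 tumors, were Mxra8 (r = 0.993), Wdfy2 in an entry with Mir8098 (0.990), Man2a1 (0.989), Ppic (0.989) and Plcd1 (0.989). Mxra8, which encodes an adhesion protein, measured 25.3, 69.2 and 39.0 in PBS, 124, 106 and 31.4 in nonresponsive tumors and 81.1, 33.8 and 60.5 in responsive ones. It was low in the same tumor of each group as the endothelial genes. None of the 5 belongs to the marker lists used here, and Pecam1, the closest of the 10 genes, ranked the 83rd in this order with r = 0.962.

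The main comparison asks whether tumors that responded to the antibody differ from those that did not. All 10 genes had a lower mean in responsive than in nonresponsive tumors, with differences of -0.35 (Emcn) to -0.02 (Eng) on the log2(FPKM + 1) scale, except that Tie1 and Eng were higher with upper-quartile scaling. No gene passed the test (limma, 0 of 10 at an adjusted p under 0.05 and 0 of 10 at an unadjusted p under 0.05), while 0.116% and 5.49% of all 13845 genes tested did. The groups overlapped for all 10 genes, and for 10.5% of all genes they did not. The median difference of the 10 genes was -0.12, beside -0.07 for all genes tested. Flt1 differed by -0.32 ± 0.21 (SE, limma, adjusted p = 0.973), Pecam1 by -0.15 ± 0.33 (limma, adjusted p = 0.983) and Kdr by -0.09 ± 0.49 (limma, adjusted p = 0.995). The 95% intervals were wide, from -1.28 to 1.10 for Kdr and from -0.84 to 0.20 for Flt1. A difference of a log2 unit in either direction was inside the interval for Kdr and Eng, and the tumors are not shown to be alike. Without nonresponsive tumor 2 the median of the 10 genes was 0.00, with 5 genes higher and 5 lower, and without nonresponsive tumor 3 it was -0.43.

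**Figure D3:**
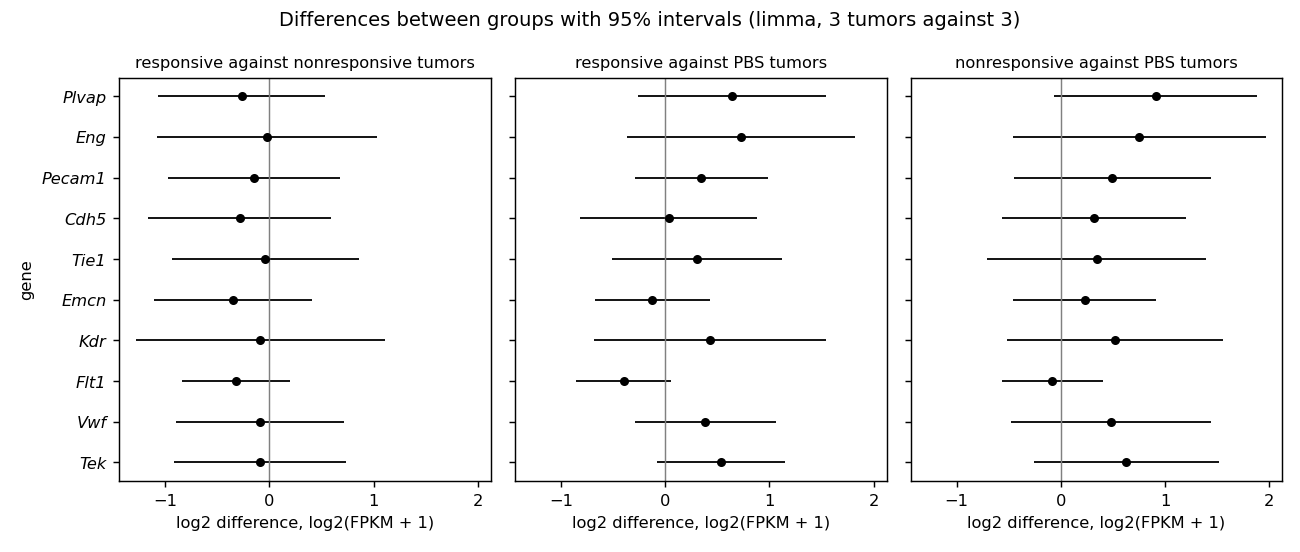
Difference in mean log2(FPKM + 1) between groups (x axis) for each gene (y axis) in the 3 comparisons, with points for the limma estimate and bars for its 95% interval, for 3 tumors against 3. All 30 intervals include 0, and Plvap in nonresponsive against PBS tumors and Tek and Flt1 in responsive against PBS tumors come closest to leaving it out.

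Against PBS tumors, responsive tumors had a higher mean for 8 of the 10 genes and a lower mean for Flt1 and Emcn, and Cdh5 was lower as well when named entries were rescaled to a common sum. No gene passed the test (limma, 0 of 10 at an adjusted and 0 of 10 at an unadjusted p under 0.05), while 0.231% and 17.2% of all 13852 genes did. The median difference was 0.37, beside -0.11 for all genes. The groups did not overlap for 2 of the 10 genes, and for 28.0% of all genes. These were Tek, higher by 0.53 ± 0.25 (SE, limma, unadjusted p = 0.0773, adjusted p = 0.309), and Flt1, with a difference of -0.40 ± 0.19 (limma, unadjusted p = 0.0775, adjusted p = 0.309). Eng differed by 0.73 ± 0.44 (limma, adjusted p = 0.379) and Plvap by 0.64 ± 0.36 (limma, adjusted p = 0.359). Their 95% intervals reached from -0.36 to 1.82 and from -0.26 to 1.55. Without PBS tumor 1 the median was 0.16 and without PBS tumor 2 it was 0.63.

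Nonresponsive against PBS tumors, which share the PBS tumors with the comparison before, had a higher mean for 9 of the 10 genes and a lower one for Flt1, by -0.08 ± 0.20. No gene passed the test (limma, 0 of 10 at an adjusted and 0 of 10 at an unadjusted p under 0.05), while 0.0797% and 3.22% of all 13806 genes did. The median difference was 0.49, beside -0.06 for all genes. Plvap was the 1 gene whose groups did not overlap, with a difference of 0.91 ± 0.39 (SE, limma, unadjusted p = 0.0617, adjusted p = 0.718), and for all genes this share was 8.20%. Eng differed by 0.75 ± 0.49, Tek by 0.63 ± 0.36 and Pecam1 by 0.49 ± 0.38, each with an adjusted p of 0.718 by limma. Without nonresponsive tumor 3 the median was 0.82 and without nonresponsive tumor 2 it was 0.29.

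The level of the endothelial genes moved with that of marker genes of other cell types across the tumors, and the part of these in the differences was not tested. The summed FPKM of 7 macrophage genes was 364 to 674 in PBS, 666 to 1047 in nonresponsive tumors and 606 to 996 in responsive ones, and PBS tumor 1 was the lowest for both. The highest 3 tumors in their mean were the same as for the endothelial genes. Macrophage genes had a median difference of 0.79 in nonresponsive and 0.56 in responsive against PBS tumors and -0.45 between the antibody-treated groups. By limma 0 of the 7 passed an adjusted p under 0.05. Of the 7 genes only Cd163, named after its values were seen, passed an unadjusted p under 0.05 (responsive against PBS tumors, beside 17.2% of all genes). Those with the highest mean FPKM were C1qa, at 228 to 375 in PBS, 402 to 518 in nonresponsive tumors and 412 to 523 in responsive ones, and Cd68 and Csf1r. The summed FPKM of 11 mural cell genes, led by Acta2, Tagln and Mcam, was 234 to 347, 332 to 674 and 212 to 409 in the same order of groups. The median differences were -0.15 between the antibody-treated groups, 0.06 in responsive and 0.32 in nonresponsive against PBS tumors. By limma 0 of the 11 passed an adjusted p under 0.05. An unadjusted p under 0.05 was passed by 1 of the 11, Mcam, in responsive against PBS tumors (lower, beside 17.2% of all genes). In nonresponsive against PBS tumors it was passed by 1 of the 11, Tagln (higher, beside 3.22% of all genes). Acta2, the smooth muscle actin, was 63.0, 119 and 149 in PBS, 212, 394 and 126 in nonresponsive tumors and 190, 54.2 and 89.5 in responsive ones.

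**Figure D4:**
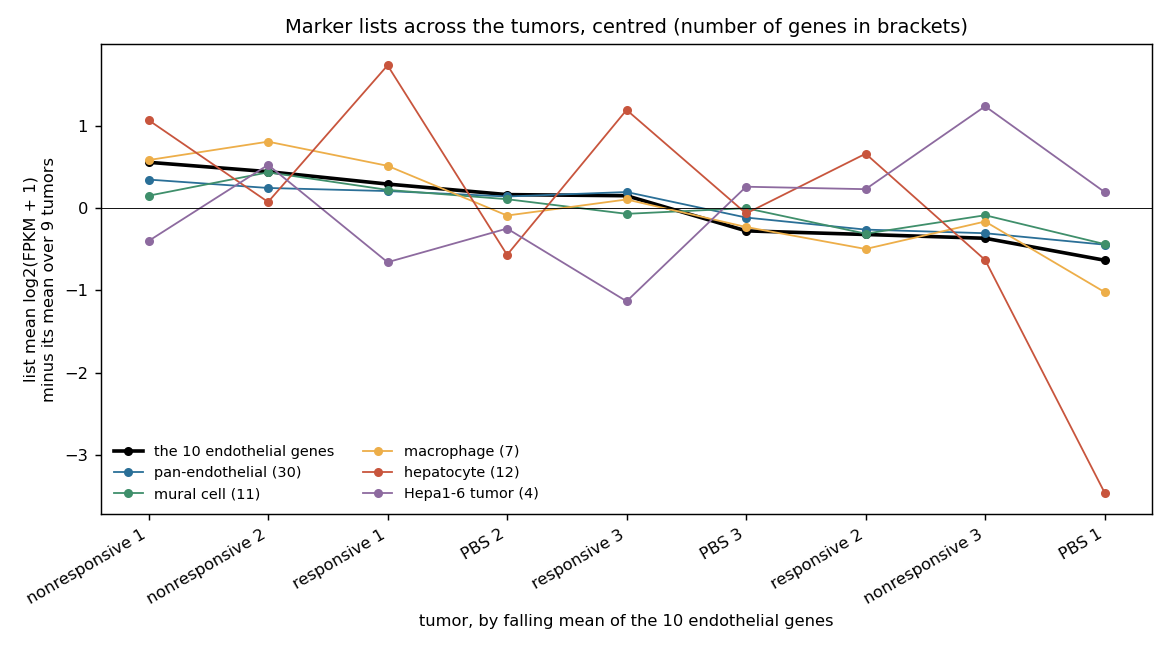
Mean log2(FPKM + 1) of each marker list minus the mean of that list over the 9 tumors (y axis), with tumors on the x axis ordered by the mean of the 10 endothelial genes and 1 line per list. Pan-endothelial, mural cell and macrophage lists descend in nearly the same order, the hepatocyte list has its own order and falls away in PBS tumor 1, and the tumor list is highest in nonresponsive tumor 3.

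Hepatocyte genes had far larger differences between groups than endothelial genes. Their summed FPKM over 12 genes, led by Alb, Hpx and Serpina1c (whose entry also names its paralogs in 7 tumors), was 530 to 6545 in PBS, 4390 to 14252 in nonresponsive tumors and 11131 to 19184 in responsive ones. Their median differences were 1.28 in responsive against nonresponsive, 2.80 in responsive against PBS and 1.44 in nonresponsive against PBS tumors. By limma 4, 8 and 0 of the 12 passed an unadjusted p under 0.05 in these comparisons, beside 5.49%, 17.2% and 3.22% of all genes, and 0 an adjusted p under 0.05. Alb, serum albumin, was 173, 835 and 1259 in PBS, 2678, 1490 and 885 in nonresponsive tumors and 5041, 2576 and 4396 in responsive ones. PBS tumor 1 was the lowest in both hepatocyte and endothelial genes, whereas responsive tumor 2 had a hepatocyte level above all PBS tumors and a low endothelial level. Of 4 genes of the tumor line, Afp, a fetal liver gene kept by hepatoma cells, was 20.4, 25.3 and 18.2 in PBS, 0.321, 9.18 and 56.5 in nonresponsive tumors and 0.646, 53.9 and 4.40 in responsive ones. It was lowest in nonresponsive tumor 1 and responsive tumor 1, where endothelial genes were high, and highest in nonresponsive tumor 3 and responsive tumor 2, where they were low. The PBS tumors did not go this way, as Afp was higher in PBS tumor 2 than in PBS tumor 1, where endothelial genes were lowest. Igf2 and H19 of the same list did not share the order of Afp. Igf2, a growth factor gene in an entry with Gm49394, was 1.12, 0.805 and 1.92 in PBS, 5.47, 5.20 and 3.84 in nonresponsive tumors and 6.12, 1.19 and 0.771 in responsive ones, with its highest level in responsive tumor 1. H19, in an entry with Mir675, ranged from 2.87 to 19.1 in PBS, was 17.6, 15.7 and 39.3 in nonresponsive tumors, and was higher in responsive tumor 1 than in the other two responsive tumors, at 3.52 and 3.01. Gpc3 ranged from 2.50 in responsive tumor 3 to 11.5 in nonresponsive tumor 2. The medians of these 4 genes were -0.86, -0.65 and 0.72 in the 3 comparisons in the same order, and 0 passed an adjusted p under 0.05 (limma). An unadjusted p under 0.05 was passed by H19 in responsive against nonresponsive tumors (limma, unadjusted p = 0.0126, adjusted p = 0.885) and by Igf2, named after its values were seen, in nonresponsive against PBS tumors (limma, unadjusted p = 0.00207, adjusted p = 0.718). Platelet genes, which bear on Vwf, were led by Pf4, at 56.2 to 604, then Ppbp and Gp1bb (in an entry with Septin5), while Gp1ba, Gp5, Gp6, Gp9 and Treml1 stayed under 1 in every tumor. Medians of the 5 platelet genes tested were 0.05, 0.01 and -0.23, with 0 genes past an adjusted or an unadjusted p under 0.05 (limma). Entries that name no gene took 70.4% to 73.2% of the summed FPKM in nonresponsive and 21.0% to 55.1% in responsive tumors. In PBS tumors they took 19.2% to 81.5%, with the highest share of all in PBS tumor 1. Rescaling named entries to a common sum moved the median of all genes between responsive and nonresponsive tumors from -0.07 to -0.24. That of the 10 endothelial genes moved from -0.12 to -0.31.

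Other endothelial genes passed no adjusted test either. Of 30 pan-endothelial genes, 23 of 29 tested had a higher mean in responsive than in PBS tumors (median 0.31) and 23 of 30 in nonresponsive than in PBS tumors (median 0.30), while 14 were higher and 16 lower in responsive than in nonresponsive tumors (median -0.06). By limma, 0 passed an adjusted p under 0.05. In responsive against PBS tumors 1 of the 29 tested, Ptprb, passed an unadjusted p under 0.05, beside 17.2% of all genes. Ptprb, the phosphatase that restrains the receptor of Tek, was 55.4, 34.2 and 51.8 in PBS, 7.97, 44.7 and 64.2 in nonresponsive tumors and 9.51, 30.7 and 18.9 in responsive ones. The difference from PBS to responsive tumors was -1.33 ± 0.45 (SE, limma, unadjusted p = 0.0263, adjusted p = 0.281). Ecscr, an endothelial surface protein that shared its entry with Dnajc18 in 2 tumors, was lowest in nonresponsive tumor 1 and responsive tumor 1, at 41.0 and 31.8, and 55.3 to 83.0 in the other tumors. Ptprb was likewise lowest in these tumors, where the 10 genes were high. It was highest in nonresponsive tumor 3 and PBS tumor 1, where they were low. Ptprb and Ecscr thus did not follow the order of the 10 genes across the tumors. Nor did Podxl of the same list, named after its values were seen. It was highest in PBS tumor 1, at 31.5, and lowest in nonresponsive tumor 1 and responsive tumor 1, at 9.66 and 9.42. Ramp2, a co-receptor for adrenomedullin in an entry with Vps25, was 58.5 to 66.7 in PBS, 64.7 to 78.7 in nonresponsive tumors and 73.0 to 85.8 in responsive ones.

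Of the ligands, other receptors and signal transducers (Smad1 and Smad5) of the VEGF, angiopoietin and TGF-beta families, 19 were in the tables and 16 or 17 were tested, and none passed an adjusted p under 0.05 in any comparison. In responsive against nonresponsive tumors 6 were higher and 11 lower (median -0.15), in responsive against PBS tumors 7 and 9 (median -0.20) and in nonresponsive against PBS tumors 9 and 7 (median 0.14). Vegfa, the principal ligand of Kdr and Flt1, was 60.0, 66.5 and 50.8 in PBS, 74.0, 32.5 and 60.0 in nonresponsive tumors and 34.5, 72.5 and 30.3 in responsive ones. Both treated groups held tumors above and below the PBS range. Tgfb1 lay between 78.7 and 113 and Tgfbr2 between 38.5 and 67.1, both with overlapping groups.

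Nrp2, a VEGF co-receptor, was 36.0, 34.5 and 34.2 in nonresponsive tumors and 28.9, 23.3 and 21.2 in responsive ones, a difference of -0.51 ± 0.19 (SE, limma, unadjusted p = 0.0365, adjusted p = 0.885). In PBS tumors it was 28.2, 30.9 and 31.9. Of the 17 tested between responsive and nonresponsive tumors it was the only one past an unadjusted p under 0.05 (limma). This is near the share of 5.49% over all genes. Between responsive and PBS tumors 3 of the 16 tested were past an unadjusted p under 0.05, near the share of 17.2% over all genes. Each of the 3 was without overlap, as were 28.0% of all genes. Nrp1, the VEGF co-receptor in an entry with Mir1903, was 9.05, 18.4 and 11.5 in PBS, 32.3, 24.9 and 14.5 in nonresponsive tumors and 58.1, 25.7 and 21.6 in responsive ones. It differed from PBS by 1.29 ± 0.45 in responsive tumors (limma, unadjusted p = 0.0297, adjusted p = 0.282) and by 0.82 ± 0.38 in nonresponsive tumors (limma, adjusted p = 0.718). Vegfd, a ligand of lymphatic growth that shared its entry with Pir in 2 tumors, was 1.30, 4.43 and 2.55 in PBS, 5.69, 16.9 and 3.93 in nonresponsive tumors and 11.8, 7.31 and 5.13 in responsive ones. The difference from PBS was 1.29 ± 0.42 in responsive tumors (limma, unadjusted p = 0.0232, adjusted p = 0.281) and nearly as large in nonresponsive tumors, at 1.25 ± 0.58 (limma, adjusted p = 0.718). Gdf2, the circulating ligand of Eng that the liver makes, was 0.147, 3.04 and 2.69 in PBS, 7.86, 4.21 and 1.19 in nonresponsive tumors and 9.75, 4.06 and 5.65 in responsive ones. Its difference from PBS was 1.47 ± 0.58 in responsive tumors (limma, unadjusted p = 0.0458, adjusted p = 0.289) and 0.85 ± 0.71 in nonresponsive tumors (limma, adjusted p = 0.718).

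Among 14 Notch, Eph and apelin genes of vessels none passed an adjusted p under 0.05 and the medians were near 0, at 0.08, -0.06 and -0.03. Ephb4, a receptor of venous endothelium, was 51.8, 31.6 and 28.1 in PBS, 15.3, 18.6 and 29.5 in nonresponsive tumors and 13.7, 41.7 and 18.4 in responsive ones. Jag1, a Notch ligand, was 18.6 to 36.2, 17.1 to 26.3 and 8.0 to 20.5 in the same groups (limma, unadjusted p = 0.0486 and adjusted p = 0.290 for responsive against PBS tumors, with overlap), and Hes1, a Notch target, was 20.3 to 27.2, 12.7 to 20.7 and 14.3 to 22.1. Aplnr, the apelin receptor, was 4.50, 3.58 and 4.11 in PBS, 20.9, 24.7 and 7.18 in nonresponsive tumors and 9.80, 0.985 and 4.41 in responsive ones. It differed by 1.72 ± 0.46 between nonresponsive and PBS tumors (SE, limma, unadjusted p = 0.0102, adjusted p = 0.718).

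Of 8 endothelial adhesion genes, 7 had a higher mean in nonresponsive than in PBS tumors (median 0.39), 3 of them without overlap and past an unadjusted p under 0.05, beside 8.20% and 3.22% of all genes, and none passed an adjusted p under 0.05 in any comparison. Selp, the P-selectin that endothelium and platelets store, was 2.08, 4.20 and 7.15 in PBS, 20.7, 25.0 and 7.25 in nonresponsive and 13.5 in responsive tumor 1, and it is listed at 0 in responsive tumors 2 and 3. Its difference was 1.72 ± 0.57 between nonresponsive and PBS tumors (limma, unadjusted p = 0.0238, adjusted p = 0.718). Sele, the E-selectin of activated endothelium, was 0.687, 0.801 and 1.54 in PBS and 4.04, 4.60 and 1.86 in nonresponsive tumors, a difference of 1.13 ± 0.34 (limma, unadjusted p = 0.0166, adjusted p = 0.718), and 3.63, 0.378 and 0.939 in responsive tumors. Ackr1, the chemokine-binding protein of venules in an entry with Cadm3, was 2.26, 5.20 and 4.97 in PBS, 13.4, 18.9 and 6.71 in nonresponsive tumors and 9.77, 6.13 and 8.47 in responsive ones. It was higher without overlap in both treated groups, by 1.40 ± 0.44 in nonresponsive (limma, unadjusted p = 0.0208, adjusted p = 0.718) and by 0.86 ± 0.32 in responsive tumors (limma, unadjusted p = 0.0384, adjusted p = 0.284). The more abundant Icam1 (which shared its entry with Icam4 in 2 tumors), Vcam1 and Cd34 overlapped between groups, at 54.5 to 98.0, 31.6 to 77.4 and 14.7 to 51.5 over all tumors. In responsive against PBS tumors the list had 4 genes higher and 3 lower (median 0.25), and in responsive against nonresponsive tumors 3 higher and 5 lower (median -0.28).

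Genes of the liver's sinusoidal endothelium, a fenestrated scavenger endothelium, had larger medians than the 10 vascular genes, with 0.89 in responsive and 0.72 in nonresponsive against PBS tumors and 0.23 in responsive against nonresponsive tumors, and none of 12 tested passed an adjusted p under 0.05. Clec4g, a lectin of these cells, was 0.877, 7.82 and 8.09 in PBS, 23.3, 8.32 and 5.33 in nonresponsive tumors and 35.0, 14.3 and 18.2 in responsive ones. The difference between responsive and PBS tumors was 2.05 ± 0.71 (SE, limma, unadjusted p = 0.0305, adjusted p = 0.282). Oit3 and Gpr182, named after their values were seen, were the other two of the 12 past an unadjusted p under 0.05 there, by 1.40 and 1.48, beside 17.2% of all genes. Stab1, a scavenger receptor that macrophages share, was 7.83, 16.0 and 10.2 in PBS, 43.9, 32.5 and 14.7 in nonresponsive tumors and 35.7, 13.9 and 21.3 in responsive ones (1.27 ± 0.46 in nonresponsive against PBS tumors, limma, unadjusted p = 0.0356, adjusted p = 0.718). Fcgr2b, which also marks myeloid and B cells and shared its entry with Fcgr3 in 5 tumors, ranged from 70.0 to 495 with overlapping groups. PBS tumor 1, the lowest in hepatocyte genes, was at 0.877 for Clec4g and is listed at 0 for Gpr182.

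Lymphatic endothelial genes, 7 of them, had medians of -0.10, 0.24 and 0.36 in responsive against nonresponsive, responsive against PBS and nonresponsive against PBS tumors, and none passed an adjusted p under 0.05. Ccl21a, a chemokine with near-identical copies in the mouse genome and therefore uncertain, was 48.3, 68.3 and 38.9 in PBS and 136, 75.2 and 122 in responsive tumors (limma, unadjusted p = 0.0169, adjusted p = 0.281). Pdpn was 21.9 to 45.8 in PBS, 26.2 to 109 in nonresponsive tumors and 24.2 to 62.9 in responsive ones. Lyve1, which the sinusoidal list also holds, was 6.68 to 12.5, 10.5 to 18.8 and 6.49 to 17.4, and was thus near the level of Kdr.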

How the data were processed

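The submitters' processing notes name TopHat2 2.1.1, Bowtie2 2.2.4 and the build mm8. For each tumor the authors deposited Cufflinks FPKM values per gene, guided by an annotation whose release is not given in the sources used here. Gene positions in the tables differ from GRCm38, and none are printed. The authors' Cuffdiff table of group means, fold changes and p-values was not used. The value of a gene was the sum of FPKM over entries naming it. Symbols always in the same entries formed 1 gene, unnamed entries were left out, and 13 symbols whose estimate failed in some tumor were dropped.

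Groups were compared on log2(FPKM + 1), which understates changes of low genes, with limma 3.58.1 in R 4.3.3 (lmFit, eBayes with trend), on the 6 tumors of each comparison, for genes that reached FPKM 1 in 3 or more of them, with Benjamini-Hochberg adjustment over all genes tested. The fit was tested on simulated data. Ratios were compared by two-sided exact permutation tests.

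The genes and all lists were chosen with earlier results of these data known. Named were the 10 genes, the 3 genes with the highest mean of each other list, genes with an adjusted p under 0.05 and, for the pan-endothelial, VEGF, Notch and adhesion lists, genes with an unadjusted p under 0.05 and no overlap, and the 5 genes most like the mean of the 10. Alternatives were a pseudocount of 0.1, no filter, a filter at FPKM 5, named entries rescaled to a common sum, scaling by the upper quartile, a fit of all 9 tumors together, a block for the replicate number, genes sharing an entry in any tumor joined, and leaving out each tumor.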

Additional observations from a re-analysis of the deposited data

How the results depend on the processing

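No endothelial gene passed an adjusted p under 0.05 in any comparison under any alternative run (limma). Up to 2 of the 10 passed an unadjusted p under 0.05 (limma) in some. With named entries rescaled, Flt1 passed in responsive against PBS tumors, beside 3131 of all 14348 genes. Plvap then passed in nonresponsive against PBS tumors, beside 445 of 14417, and also with all 9 tumors in 1 fit, beside 463 of 13806. Without PBS tumor 2, Tek and Vwf passed in responsive against PBS tumors, beside 2275 of 13486. Without nonresponsive tumor 3, Pecam1 and Tek passed in nonresponsive against PBS tumors, beside 1860 of 13502. At the filter of FPKM 5 Tek was not tested. Directions between responsive and nonresponsive tumors turned for Tie1 (0.013) and Eng (0.032) with upper-quartile scaling, and, when 1 tumor was left out, ranged from -0.44 to 0.33 for Kdr, -0.42 to 0.10 for Tek, -0.38 to 0.24 for Tie1, -0.39 to 0.27 for Eng, -0.49 to 0.058 for Pecam1 and -0.41 to 0.16 for Vwf. Between responsive and PBS tumors Cdh5 turned to -0.12 with named entries rescaled and ranged from -0.19 to 0.30, and Emcn from -0.27 to 0.052, with 1 tumor left out. Flt1 ranged from -0.19 to 0.018 in nonresponsive against PBS tumors. The cause was not tested. The number of all genes called moved more. In responsive against nonresponsive tumors it was 16, and 9 with no filter, 8 at FPKM 5, 8 with joined entries and 0 (without responsive tumor 3) to 32 (without nonresponsive tumor 1) with 1 tumor left out. In responsive against PBS tumors it was 32, and 16 with all 9 tumors, 19 with joined entries and 7 (without responsive tumor 3) to 49 (without PBS tumor 2). In nonresponsive against PBS tumors it was 11, and 5 with no filter, 6 with all 9 tumors, 5 with joined entries and 2 (without nonresponsive tumor 2) to 30 (without nonresponsive tumor 3). The labels give same-numbered tumors nothing in common but the number. Their deviations from the group means correlated at -0.39 to 0.47, which cannot exclude a shared batch. With the replicate number as a block, 1, 0 and 0 genes were called in the 3 comparisons and 0 endothelial genes.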
